A study of Mus musculus with 16 samples.

Results

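In primary cultures of mouse articular chondrocytes, the cells that build and maintain joint cartilage, 1737 of 12976 tested genes lay wholly to one side of the vehicle libraries after bleomycin, after doxorubicin and after interleukin-1β (IL-1β) alike, which is 13.4% of the tested genes. Levels were FPKM, fragment counts scaled to the length of the gene and to the mapped total of the library, and a gene was tested where it reached an FPKM of at least 1 in at least 4 of the 16 libraries. In 1052 genes (8.11% of those tested) each of the 12 treated libraries lay above all 4 vehicle libraries, and in 685 genes (5.28%) each lay below all 4. These 1737 genes are called members here. The members were chosen by these FPKM levels against vehicle, so their differences from vehicle are described and not tested, and nothing is read from how often a group of genes met the rule. The tests compare the treatments with each other, a contrast that the rule did not use. The rule did use the levels of the same treated libraries, so shares of members called, beside all tested genes, may also reflect that choice. Tests were made with limma over all tested genes with Benjamini-Hochberg adjustment, and a gene is called where its adjusted p is under 0.05. A difference between treatments is given on the log2(FPKM + 1) scale as value ± standard error.

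The study asked how chondrocytes become senescent. It used bleomycin and doxorubicin, which damage DNA, as inducers of senescence, and IL-1β, an inflammatory cytokine, as an acute stress for comparison, with 4 libraries in each of the 4 groups. Bleomycin was given at 50 µg/mL for 24 h, to cells first kept for 4 h in hyaluronidase at 4 U/mL 2 days after seeding, and 5 days in fresh medium followed. Doxorubicin at 50 nM stayed on the cells for 5 days, renewed with the medium each 48 h. The IL-1β cells had 1 ng/mL over 24 h, and vehicle cells received an equal volume of phosphate-buffered saline for 24 h. All cultures were kept in 10% serum at 3% oxygen. The agents thus differ in dose, length of exposure and recovery all at once, so that agent, dose and time cannot be told apart between treatments. The labels give no vehicle culture matched to the hyaluronidase step or to the 5 days of either drug, so what these steps add to the differences from vehicle cannot be told apart from the treatments. All 3 treatments were set against the same 4 vehicle libraries. The labels do not say whether the 4 libraries of a group came from separate animals or cultures, so p-values measure the spread between these libraries, which may be technical.

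Several systems recur among the members. Lysosomes digest proteins, sugars and lipids, and their genes share a short promoter element, the coordinated lysosomal expression and regulation (CLEAR) element, that the transcription factor TFEB binds through its E-box. Amino acid supply is governed by ATF4, a factor that is made when amino acids run short and that switches on transporters, synthetic enzymes and aminoacyl-tRNA synthetases through C/EBP-ATF response elements. The protein p53 responds to DNA damage and raises the cell cycle inhibitor p21, encoded by Cdkn1a. Chondrocytes are known by type II collagen and aggrecan, both controlled by the transcription factor SOX9.

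The CLEAR E-box and the C/EBP-ATF element are known from lysosomal genes and from genes of amino acid supply, so 8 promoter stretches that hold them are shown here as DNA. Windows of 250 bases upstream of the annotated start came from RefSeq on build GRCm38.p6, and 9677 of the 12976 tested genes and 1353 of the 1737 members could be matched to one. The E-box was searched as TCACGTG and the C/EBP-ATF element as TGATGNAA, both on either strand, and the capitals mark each match to the E-box in the first 4 stretches and to the C/EBP-ATF element in the last 4. The Aars stretch also holds the E-box, left in lower case. The E-box extended by an A reads the same on both strands and counts as a match on each. Sequences run 5′ to 3′ in the direction of transcription. Gla, Mcoln1, Lamp1, Naglu, Aars and Chac1 were chosen for display after their values had been seen.
Gla, chrX:134601166-134601255 on the minus strand: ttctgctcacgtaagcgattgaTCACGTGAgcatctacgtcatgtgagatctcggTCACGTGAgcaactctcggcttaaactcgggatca
Mcoln1, chr8:3500407-3500496 on the plus strand: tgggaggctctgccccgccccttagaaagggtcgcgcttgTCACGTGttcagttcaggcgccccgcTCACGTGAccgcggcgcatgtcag
Lamp1, chr8:13159059-13159148 on the plus strand: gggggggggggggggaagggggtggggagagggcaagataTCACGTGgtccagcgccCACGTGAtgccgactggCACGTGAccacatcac
Naglu, chr11:101069980-101070069 on the plus strand: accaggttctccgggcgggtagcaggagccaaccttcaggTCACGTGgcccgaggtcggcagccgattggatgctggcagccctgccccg
Gars, chr6:55037911-55038000 on the plus strand: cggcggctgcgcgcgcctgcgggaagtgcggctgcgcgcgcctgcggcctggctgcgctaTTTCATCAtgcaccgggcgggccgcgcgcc
Aars, chr8:111033690-111033779 on the plus strand: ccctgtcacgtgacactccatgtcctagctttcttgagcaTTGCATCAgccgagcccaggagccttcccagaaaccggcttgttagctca
Asns, chr6:7693210-7693299 on the minus strand: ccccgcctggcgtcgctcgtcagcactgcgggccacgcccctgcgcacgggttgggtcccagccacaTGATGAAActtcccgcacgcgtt
Chac1, chr2:119351009-119351098 on the plus strand: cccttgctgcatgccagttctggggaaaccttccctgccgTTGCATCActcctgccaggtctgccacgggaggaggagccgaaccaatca
The first 4 belong to lysosomal genes that were higher in all treated libraries, and the last 4 to genes of amino acid supply and its stress response that were lower. The E-box stood in 10 of 40 windows of the higher lysosomal genes (25.0%), in 2 of 20 windows of lysosomal genes that were not members (10.0%), in 4.90% of the windows of tested genes and in 3.13% of all 32851 windows. It also stood in 2 of 10 windows of lower aminoacyl-tRNA synthetase genes (20%), those of Aars and Farsb, so it was not restricted to genes that were higher. The C/EBP-ATF element stood in 3 of 10 windows of lower aminoacyl-tRNA synthetase genes (30.0%) and in 4 of 8 windows of lower genes of the list on ATF4 and unfolded proteins (50.0%), against 1.95% of the windows of tested genes. In the other lists of amino acid supply it stood in 2 of 16 windows of lower serine, one-carbon and amino acid synthesis genes (12.5%) and in 2 of 14 windows of lower amino acid transporter genes (14.3%). The former include Asns, also in the ATF4 list, and the 14 windows belong to 5 genes, with Slc7a7 alone matched. In ATF4-list genes that were not members the C/EBP-ATF element stood in 2 of 22 windows (9.09%). It also stood in 5 of 40 windows of the higher lysosomal genes (12.5%) and in 2 of 14 of higher interferon-stimulated genes (14.3%), so it was not restricted to genes that were lower. These matches describe letters in a window and not bound sites, and the few windows in each group make the shares coarse.

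The files gave no read counts. The step between low FPKM values put the libraries at 15.8 M to 21.9 M fragments (M, mega), with no group deeper throughout, and 12014 to 12481 genes reached an FPKM of 1. The FPKM values summed to 405159 to 423830 in the vehicle and drug libraries and to 521294 to 559190 in the IL-1β libraries. In the latter Saa3 was the most abundant gene, at 62509 to 80249 FPKM. Without the most abundant gene of each library, the sums were 399088 to 415724 in the vehicle and drug libraries and 458785 to 478942 after IL-1β. All 10 chondrocyte markers listed were tested, and their summed level was 11934 to 15907 FPKM in the vehicle libraries, 8925 to 11856 after bleomycin, 9075 to 11923 after doxorubicin and 5334 to 5782 after IL-1β, so these genes were expressed in every group. Of 15 macrophage markers 10 stayed under 1 FPKM in all libraries, among them Ptprc, Adgre1 and Csf1r, as did 10 of 11 endothelial markers and all 7 erythroid markers. In RNA from whole cultures, fewer cells of a type and less RNA per cell cannot be told apart.

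The median higher member differed from vehicle by 0.58 after bleomycin, 0.61 after doxorubicin and 0.55 after IL-1β on the log2(FPKM + 1) scale, and the median lower member by -0.47, -0.53 and -0.42, beside 0.06, 0.02 and 0.03 over all tested genes. Of the members, 55 higher and 11 lower members differed at least 2-fold in each treatment, and 303 higher and 297 lower members stayed under 1.5-fold in each. The gap between the nearest treated and vehicle libraries was at least 0.5 in 107 higher and 29 lower members, and under 0.1 in 414 and 305. At the edge of the rule, Fbf1 had a highest vehicle level of 8.41 and a lowest treated level of 8.42 FPKM, and Col5a3 had 4.64 for both. Rhoa had a lowest vehicle level of 194 and a highest treated level of 194 FPKM, and Sfpq had 60.7 and 60.6. Just outside lay Orm2 and Stfa3, listed at 0 in vehicle and in at least 1 treated library, and Gnai3 and Hirip3, whose highest treated levels of 55.6 and 8.73 FPKM passed the lowest vehicle levels of 55.5 and 8.72. The filter let in 123 higher members whose vehicle libraries were all under 1 FPKM and 7 lower members whose treated libraries were all under 1.

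The split into higher and lower depends on how libraries are scaled to each other. As deposited, 60.6% of the members were higher. This share was 49.9% with median-of-ratios scaling (878 higher and 883 lower), 44.0% after quantile normalization (762 and 971) and 27.2% with equal FPKM totals (494 and 1324). Equal totals moved the median of all tested genes after IL-1β to -0.31 on the log2 scale, so the differences there are relative to that shift. The balance of higher and lower members turned with equal totals for the respiratory chain (1 higher and 9 lower, against 2 and 0 as deposited), the glycolysis and hypoxia response list (1 and 3, against 5 and 0) and the proteasome (0 and 4, against 1 and 1).

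**Figure D1:**
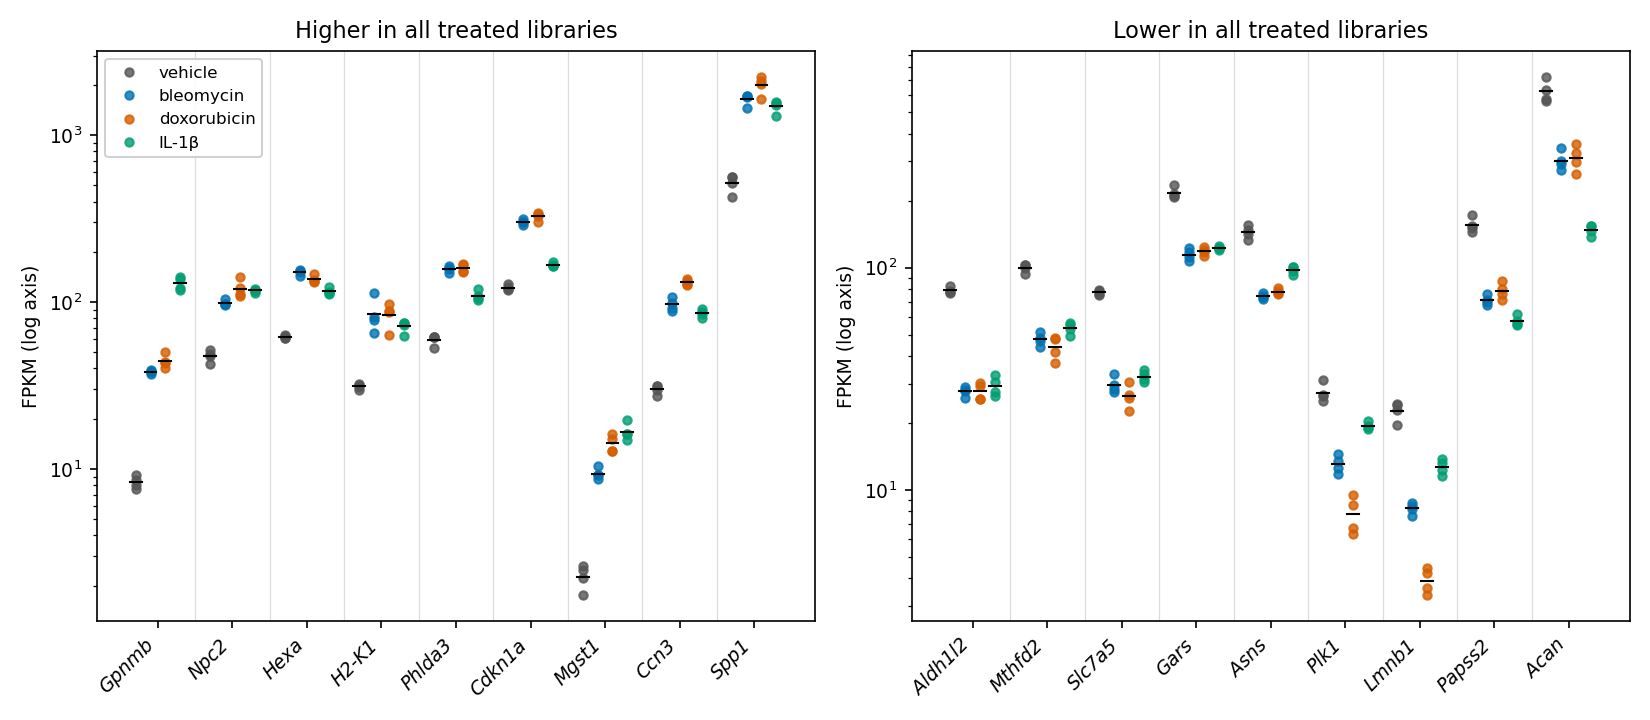
FPKM (log axis) of 18 members in each library, 9 higher on the left and 9 lower on the right. Points are libraries, coloured by group, and black bars are group means of 4 libraries. No treated point lies within the vehicle range of its gene, while the order of the treatments differs between genes.

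Of 61 tested lysosomal genes 44 (72.1%, against 8.11% of all tested genes) lay above vehicle in all treated libraries. None lay below, and the other 17 overlapped with vehicle. The list's median difference was 0.71 after bleomycin, 0.61 after doxorubicin and 0.59 after IL-1β on the log2 scale. By library, the median over the list was -0.03 to 0.04 in vehicle, 0.68 to 0.73 after bleomycin, 0.63 to 0.67 after doxorubicin and 0.54 to 0.60 after IL-1β. Equal totals left 26 higher, median-of-ratios scaling 38 and quantile normalization 39, and none was lower under these scalings. The members' median fold over vehicle was 1.76 after bleomycin, 1.76 after doxorubicin and 1.68 after IL-1β.

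Hexa (ENSMUSG00000025232.8, chr9:59539540-59565109 on GRCm38), the alpha subunit of the enzyme that degrades ganglioside GM2, stood at 62.3, 60.8, 63.3 and 61.1 FPKM in the vehicle libraries, 144, 150.3, 153 and 156 after bleomycin, 132, 133, 135 and 147 after doxorubicin and 111, 124, 114 and 115 after IL-1β. The vehicle libraries lay within a few units of each other and every treated library was well above them. Its mean was 2.44, 2.21 and 1.87 times the vehicle mean, in that order of treatments. Npc2, which passes cholesterol out of the lysosome, ranged over 42.8 to 51.6 FPKM in vehicle and 95.8 to 104, 109 to 141 and 114 to 119.8 in the treatments. The abundant membrane protein gene Lamp1 was at 269.6 to 274 FPKM in vehicle and at 427 to 463, 393 to 418 and 438 to 481. Mcoln1, the lysosomal calcium channel gene whose promoter is shown above, lay at 13.02 to 16.1 FPKM in vehicle and at 21.6 to 23.9, 21.5 to 21.8 and 24.4 to 26.9 in the treatments. Naglu, which degrades heparan sulfate, was at 11.4 to 12.5 FPKM in vehicle and at 23.3 to 27.7, 21.5 to 23.3 and 16.9 to 24.2.

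Other lysosomal members followed the treatments unequally. Gpnmb (ENSMUSG00000029816.10, chr6:49036546-49070929), a transmembrane glycoprotein of lysosomes and melanosomes, had the largest gap of all members. It was at 9.19, 8.64, 7.63 and 7.95 FPKM in vehicle, 38.2, 37.3, 38.5 and 39.2 after bleomycin, 43.2, 43.6, 40.2 and 49.96 after doxorubicin and 118, 138, 121 and 142 after IL-1β. The 4 groups did not overlap and lay in the order vehicle, bleomycin, doxorubicin, IL-1β, and the IL-1β mean was 15.5 times the vehicle mean. Gpnmb was higher after IL-1β than after either drug: the log2 difference was -1.73 ± 0.08, adjusted p = 1.9e-11, for bleomycin minus IL-1β, and -1.53 ± 0.08, adjusted p = 8.8e-11, for doxorubicin minus IL-1β. Bleomycin minus doxorubicin was -0.20 ± 0.08, adjusted p = 0.11. Gla, the alpha-galactosidase gene with the E-boxes shown above, had 4.38 to 4.89 FPKM in vehicle, 8.66 to 9.97 and 11.2 to 13.1 after the drugs and 21.7 to 26.97 after IL-1β. Hexa had the opposite order, with a difference of 0.38 ± 0.05, adjusted p = 6.2e-06, for bleomycin minus IL-1β, and 0.23 ± 0.05, adjusted p = 5.9e-04, for doxorubicin minus IL-1β. Across the 44 members, 21 were called higher after bleomycin than after IL-1β and 12 lower, where 27.6% of all tested genes were called higher and 25.2% lower. After doxorubicin 16 were called higher than after IL-1β and 14 lower, where 25.1% and 29.2% of all tested genes were. In none of the 3 treatment comparisons were 7 members called, against 36.0% of all tested genes. With equal totals the first counts became 33 and 4 and the second 30 and 2.

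Autophagy genes, which deliver cargo to the lysosome, included 11 higher members (35.5%, against 8.11% of all tested genes) and none lower among 31 tested. The cargo receptor gene Sqstm1 was at 120.2 to 135 FPKM in vehicle, 180.1 to 208 after bleomycin, 169 to 187 after doxorubicin and 216 to 247 after IL-1β. Trp53inp1, a p53 target that also serves autophagy, was at 5.22 to 7.62 FPKM in vehicle and at 18.8 to 27.4, 19.8 to 27.7 and 10.9 to 18.7. The list was scaling dependent, with 4 higher under equal totals, where its median after IL-1β was -0.13, and 8 under either other scaling.

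Of 53 tested genes of fatty acid and lipid metabolism, 16 were higher (30.2%) and 4 lower (7.55%), against 8.11% and 5.28% of all tested genes. With equal totals these counts were 9 and 7. Fabp4, a fatty acid carrier best known from fat cells, was at 29.1, 27.5, 34.5 and 33.9 FPKM in vehicle, 54.8, 57.9, 61.7 and 58.8 after bleomycin, 155, 116, 140.5 and 151 after doxorubicin and 383, 383, 354 and 346 after IL-1β. The 4 groups were again separate, each step upward. The differences were -1.25 ± 0.09, adjusted p = 4.6e-07, for bleomycin minus doxorubicin, and -1.38 ± 0.09, adjusted p = 2.2e-09, for doxorubicin minus IL-1β. Lpl, the lipoprotein lipase gene, had 2.57 to 3.60 FPKM in vehicle and 6.14 to 9.11, 11.1 to 15.3 and 9.54 to 13.2 in the treatments. Of 7 tested adipocyte markers 3 were higher members, Fabp4 and Lpl themselves and Cebpa, and the other 4 were not members. The summed level of that list was 38.0 to 43.2 FPKM in vehicle, 77.1 to 88.1 after bleomycin, 158 to 206 after doxorubicin and 371 to 410 after IL-1β, most of it Fabp4. Its median difference by library had another order: 0.80 to 1.09 after bleomycin, 1.53 to 2.02 after doxorubicin and 0.51 to 0.83 after IL-1β. Lep alone of the 9 stayed under 1 FPKM in all libraries. Of 3 tested osteoclast markers 2 were higher members, both lysosomal genes: Ctsk at 68.7 to 76.2 and Acp5 at 6.40 to 7.39 FPKM in vehicle. The summed level of the osteoclast list was 75.4 to 83.7 FPKM in vehicle and 156 to 182 after IL-1β. Of the 8 osteoclast markers 5, Dcstamp and Ocstamp among them, were under 1 FPKM in all libraries. Acp5 lost its place among the members under each of the 3 scalings. What such cells contribute to the lysosomal and lipid groups was not tested.

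**Figure D2:**
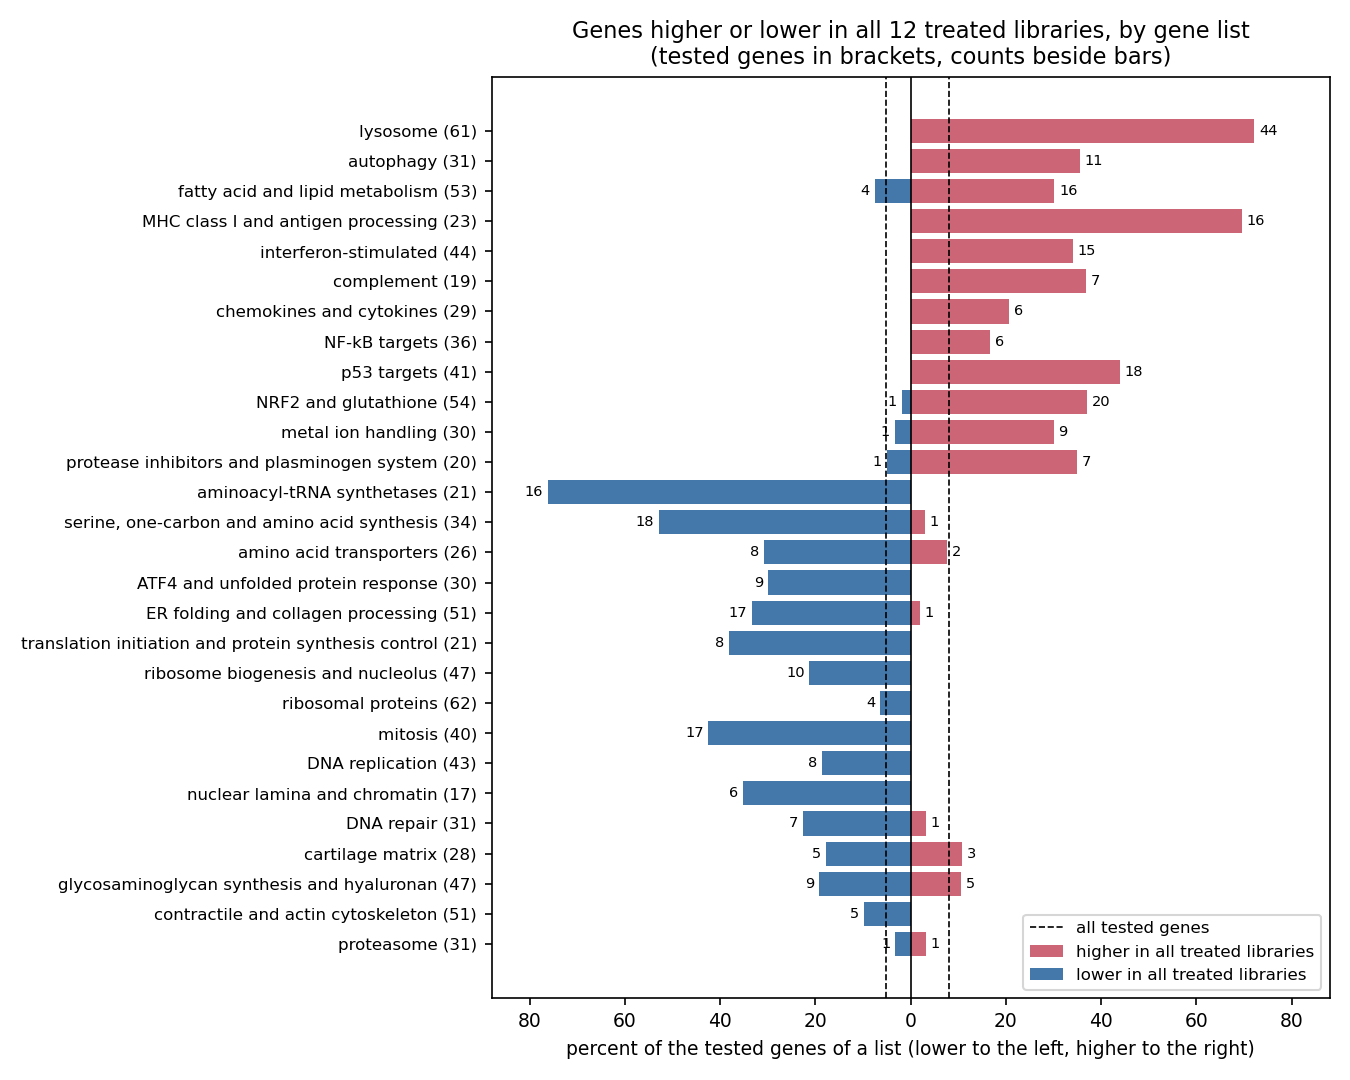
Percent of the tested genes of 28 lists that were higher (right) or lower (left) in all 12 treated libraries, with counts beside the bars and the number tested in brackets. Dashed lines mark the 8.11% and 5.28% over all tested genes. Lysosomal and MHC class I genes reach farthest to the right and aminoacyl-tRNA synthetase genes farthest to the left.

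Genes of antigen presentation were also among the higher members. MHC class I molecules show fragments of the cell's own proteins at its surface. Of the 23 tested genes of this system 16 were higher members (69.6%, against 8.11% of all tested genes), with none lower. The count was 15, 13 and 15 under median-of-ratios, equal-total and quantile scaling. H2-K1 (ENSMUSG00000061232.16, chr17:33996017-34000347), a classical class I heavy chain gene, was at 29.8, 30.8, 32.03 and 32.2 FPKM in vehicle, 64.8, 78.5, 113 and 81.2 after bleomycin, 97.8, 63.9, 88.1 and 86.7 after doxorubicin and 75.4, 62.97, 75.3 and 72.5 after IL-1β. The treated groups overlapped with each other and none reached down to vehicle. H2-D1 was at 90.02 to 100.8 FPKM in vehicle, 296 to 412 and 347 to 414 after the drugs and 167 to 209.8 after IL-1β, which was a difference of 0.86 ± 0.09, adjusted p = 1.3e-06, for bleomycin minus IL-1β, and 1.01 ± 0.09, adjusted p = 1.8e-07, for doxorubicin minus IL-1β. H2-Q4 lay at 4.71 to 7.05 FPKM in vehicle and at 16.3 to 25.8, 19.4 to 27.3 and 17.2 to 18.5. Class I heavy chain genes are close copies of one another, so the share of reads given to each is uncertain. Of the 16 members, 8 were called higher after bleomycin than after IL-1β and 2 lower, and 10 were called higher after doxorubicin than after IL-1β and 2 lower. Over all tested genes, 27.6% and 25.2% were called in these directions for bleomycin, and 25.1% and 29.2% for doxorubicin.

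Interferon-stimulated genes are switched on against viruses and on sensing the cell's own stray nucleic acid. Of 44 tested, 15 were higher (34.1%, against 8.11% of all tested genes) and none lower, and 10 were higher with equal totals. The size of the difference was larger after the drugs than after IL-1β. Irf7 and Oas1a, however, passed the FPKM filter only with the drug libraries, and the list counts them. By library, the list's median difference from vehicle was 1.32 to 1.93 after bleomycin, 1.73 to 2.08 after doxorubicin and 0.18 to 0.25 after IL-1β on the log2 scale. Bst2 (ENSMUSG00000046718.8, chr8:71534255-71537456), which tethers viruses to the membrane, was at 5.04, 5.93, 6.07 and 7.40 FPKM in vehicle, 65.6, 46.8, 97.4 and 77.5 after bleomycin, 74.8, 54.4, 97.9 and 88.1 after doxorubicin and 12.1, 14.7, 15.99 and 13.2 after IL-1β. The IL-1β libraries lay just above vehicle and both drugs far above, with a difference of 2.24 ± 0.20, adjusted p = 9.7e-08, for bleomycin minus IL-1β, and 2.38 ± 0.20, adjusted p = 4.3e-08, for doxorubicin minus IL-1β. Lgals3bp, a secreted galectin ligand, was at 17.01 to 24.7 FPKM in vehicle, 109 to 169 and 111 to 163 after the drugs and 36.6 to 55.4 after IL-1β. Irf7, a transcription factor that amplifies interferon signalling, was at 0.0679 to 0.604 FPKM in vehicle, 5.78 to 10.6 and 8.35 to 12.8 after the drugs and 0.959 to 1.57 after IL-1β. Of the 15 members, 12 were called higher after bleomycin and 13 after doxorubicin than after IL-1β, where 27.6% and 25.1% of all tested genes were. These counts include Irf7 and Oas1a, so they restate the filter in part. The other way 2 and 1 were called, against 25.2% and 29.2%. One of them was Cxcl10, at 0.0651 to 0.296 FPKM in vehicle and 3.51 to 6.05 after IL-1β. The element of interferon-stimulated promoters (GAAA, any 2 bases, then GAAA, on either strand) stood in 7 of 14 windows of these members (50.0%), in 30.4% of the windows of tested interferon-stimulated genes that were not members and in 2.49% of the windows of tested genes.

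Complement genes held 7 higher members (36.8%, against 8.11% of all tested genes) and none lower among 19 tested. C1s1, a protease that starts the classical pathway, was at 12.1, 10.4, 12.7 and 13.3 FPKM in vehicle, 23.7, 22.6, 25.6 and 25.6 after bleomycin, 57.8, 52.9, 53.7 and 69.3 after doxorubicin and 108, 103, 103 and 100.2 after IL-1β. Each group was separate from the others, and bleomycin minus doxorubicin was -1.22 ± 0.08, adjusted p = 3.8e-07, and doxorubicin minus IL-1β was -0.82 ± 0.08, adjusted p = 4.8e-07. C4b, which the C1 complex cleaves, was at 19.7 to 29.3 FPKM in vehicle and at 48.3 to 66.8, 83.6 to 97.7 and 49.3 to 68.7 in the treatments. Factor B, encoded by Cfb, spread further, at 3.37 to 6.82 FPKM in vehicle and 8.81 to 13.5, 27.99 to 58.6 and 106 to 125.

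Targets of p53 held 18 higher members (43.9%, against 8.11% of all tested genes) and none lower among 41 tested. By library, the list's median difference was 0.54 to 0.62 after bleomycin, 0.66 to 0.81 after doxorubicin and 0.15 to 0.36 after IL-1β, beside 0.05 to 0.08, 0.01 to 0.03 and 0.01 to 0.05 over all tested genes. Cdkn1a (ENSMUSG00000023067.14, chr17:29090976-29100727), which encodes p21, was at 119, 128, 123 and 118 FPKM in vehicle, 302, 301, 316 and 288 after bleomycin, 337, 328, 342 and 302 after doxorubicin and 175, 164, 167 and 164 after IL-1β. The means were 2.48, 2.69 and 1.37 times vehicle, and the IL-1β libraries lay between the vehicle and drug libraries. With equal totals Cdkn1a overlapped with vehicle. Against IL-1β the difference was 0.85 ± 0.05, adjusted p = 6.9e-10, for bleomycin, and 0.96 ± 0.05, adjusted p = 1.4e-10, for doxorubicin, while bleomycin minus doxorubicin was -0.12 ± 0.05, adjusted p = 0.16. Phlda3, an inhibitor of AKT, was at 53.3 to 61.99 FPKM in vehicle and 149.8 to 165, 152 to 169.5 and 103 to 119 in the treatments. Btg2, an antiproliferative gene, had 11.7 to 12.5 FPKM in vehicle and 22.3 to 23.3, 25.9 to 28.02 and 23.1 to 28.2, with IL-1β as high as the drugs. Fas, a death receptor gene, was instead highest after IL-1β, at 55.8 to 73.02 FPKM against 14.1 to 16.8 in vehicle, 20.7 to 23.6 after bleomycin and 28.8 to 32.7 after doxorubicin. Of the 18 members, 11 were called higher after bleomycin and 13 after doxorubicin than after IL-1β, against 27.6% and 25.1% of all tested genes. The other way 4 and 3 were called, against 25.2% and 29.2%. Between the drugs 6 were called higher after doxorubicin than after bleomycin, against 4.18% of all tested genes. Equal totals left 8 higher p53 targets and made 1 lower, with a median after IL-1β of -0.04, quantile normalization left 13 and median-of-ratios scaling 17.

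Genes against oxidative stress are controlled by the factor NRF2 together with glutathione metabolism. Of 54 tested, 20 were higher (37.0%) and 1 lower, Prdx3 (1.85%), against 8.11% and 5.28% of all tested genes. Mgst1 (ENSMUSG00000008540.11, chr6:138140316-138156755), a membrane-bound glutathione transferase, was at 2.21, 2.49, 2.61 and 1.75 FPKM in vehicle, 9.20, 10.5, 8.69 and 9.14 after bleomycin, 12.8, 12.7, 15.1 and 16.2 after doxorubicin and 14.8, 16.3, 19.6 and 16.2 after IL-1β. Its means were 4.14, 6.27 and 7.39 times vehicle, and bleomycin lay lowest of the treatments. Hmox1, which breaks down heme, was at 81.03 to 94.6 FPKM in vehicle, 148 to 172 and 153 to 167 after the drugs and 255 to 325 after IL-1β, with -0.83 ± 0.07, adjusted p = 1.0e-07, for bleomycin minus IL-1β, and -0.84 ± 0.07, adjusted p = 8.2e-08, for doxorubicin minus IL-1β. The iron store gene Fth1 was at 896, 780.0, 818 and 839 FPKM in vehicle, 1382, 1444, 1025 and 1246 after bleomycin, 1116, 1344, 1280.1 and 1545 after doxorubicin and 5486, 4073, 6099 and 5160.0 after IL-1β. The lowest bleomycin library lay close above the highest vehicle library, and the IL-1β libraries lay far above all others. Of the 21 members of this list, 14 were called lower after bleomycin and 12 lower after doxorubicin than after IL-1β, against 25.2% and 29.2% of all tested genes. Called higher were 3 and 3, against 27.6% and 25.1%. Under equal totals these counts became 9 and 7 lower and 8 and 8 higher. Metal ion genes held 9 higher and 1 lower members among 30 tested (4 and 1 after quantile normalization). As deposited these were 30.0% and 3.33%, against 8.11% and 5.28% of all tested genes. The zinc importer gene Slc39a10 was a higher member, at 4.21 to 5.29 FPKM in vehicle and 10.6 to 13.3, 10.5 to 12.7 and 9.29 to 14.04 in the treatments.

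**Figure D3:**
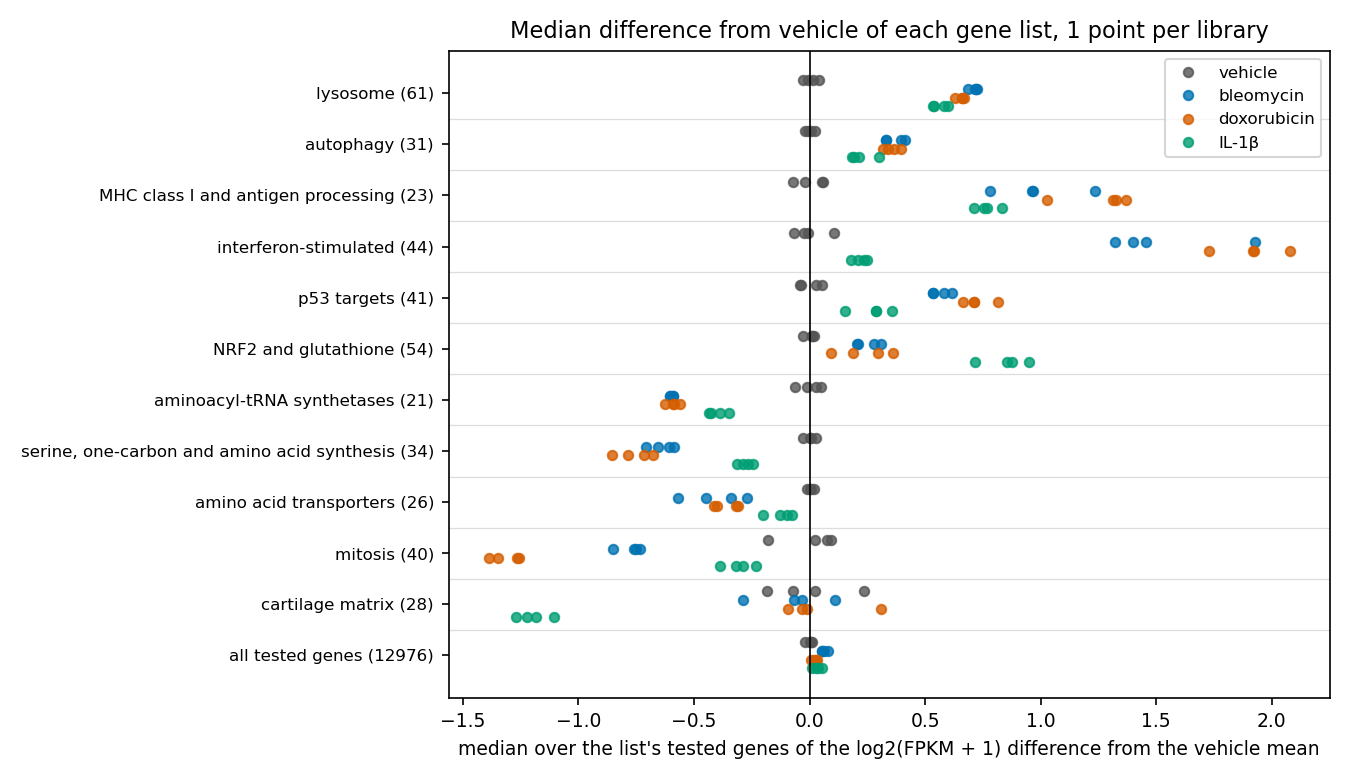
Median over each list's tested genes of the log2(FPKM + 1) difference from the vehicle mean, 1 point per library, for 11 lists and all tested genes. Lysosomal genes lie at 0.54 to 0.73 in all treated libraries, interferon-stimulated genes at 1.32 to 2.08 after the drugs and 0.18 to 0.25 after IL-1β, and mitosis genes lowest after doxorubicin.

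Some genes of secreted and surface proteins of the inflammatory kind were higher members, although their lists did not rise after bleomycin. Chemokines and cytokines held 6 higher members (20.7%) among 29 tested, and NF-kB targets 6 (16.7%) among 36, against 8.11% of all tested genes. None was lower in either list. The NF-kB count was 3 with median-of-ratios scaling and after quantile normalization. By library, the NF-kB list's median difference was -0.15 to 0.06 in vehicle, -0.15 to -0.08 after bleomycin, 0.17 to 0.46 after doxorubicin and 1.35 to 1.53 after IL-1β. For chemokines and cytokines it was -0.11 to 0.07, -0.07 to -0.01, 0.11 to 0.54 and 1.05 to 1.35, in that order. Ccl5, which attracts T cells, was at 0.222 to 0.880 FPKM in vehicle, 3.56 to 5.61 after bleomycin, 5.12 to 7.58 after doxorubicin and 28.3 to 45.2 after IL-1β, with -2.74 ± 0.17, adjusted p = 1.9e-09, for bleomycin minus IL-1β, and -2.30 ± 0.17, adjusted p = 1.4e-08, for doxorubicin minus IL-1β. Il34, a ligand of the macrophage growth factor receptor, was at 2.65 to 3.19 FPKM in vehicle and 6.24 to 7.31, 9.05 to 11.5 and 7.07 to 9.06 in the treatments. Cx3cl1, a membrane-tethered chemokine gene, was at 3.89 to 5.46 FPKM in vehicle and 14.6 to 17.9, 9.88 to 12.99 and 21.6 to 28.3. The adhesion receptor gene Icam1 had 28.3 to 32.2 FPKM in vehicle and 53.8 to 59.02, 60.1 to 67.9 and 52.5 to 57.4, so that here IL-1β did not exceed the drugs. Pim2, a survival kinase gene, showed the opposite, with 0.750 to 1.17 FPKM in vehicle, 1.55 to 1.93 and 1.42 to 2.10 after the drugs and 22.4 to 26.4 after IL-1β. Vnn1, which makes cysteamine, was at 0.824 to 1.68 FPKM in vehicle, 2.37 to 3.69 and 4.36 to 6.19 after the drugs and 213 to 252 after IL-1β.

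Several genes that are often read as signs of senescence or of cartilage breakdown did not belong to the shared set. Cdkn2a, the p16 and ARF gene, was at 5.69 to 6.84 FPKM in vehicle, 12.1 to 14.2 after bleomycin, 4.91 to 7.30 after doxorubicin and 8.99 to 10.4 after IL-1β, so doxorubicin overlapped with vehicle. Il6 was at 1.38 to 3.43 FPKM in vehicle, 0.189 to 0.558 and 1.31 to 3.17 after the drugs and 44.1 to 51.2 after IL-1β, and bleomycin lay below vehicle. Cxcl1, a neutrophil chemokine gene, was likewise below vehicle after bleomycin, at 6.18 to 9.89 against 24.3 to 55.5 FPKM, and at 1381 to 1517 after IL-1β. The collagenase gene Mmp13 was at 135 to 257 FPKM in vehicle and 164 to 231 after bleomycin, where the ranges overlapped, and at 286 to 512 and 1432 to 1581 after doxorubicin and IL-1β. Mmp3, stromelysin 1, missed the rule narrowly because the bleomycin range of 24.3 to 36.5 FPKM began within the vehicle range of 9.88 to 25.5. Of the aggrecanase genes, Adamts5 was a higher member, at 9.84 to 12.2 FPKM in vehicle and 13.5 to 16.3, 19.6 to 24.995 and 14.9 to 17.2, which overlapped with vehicle with equal totals. Adamts4 was not a member, with 1.08 to 2.07 in vehicle and 2.04 to 3.06, 2.02 to 2.53 and 1.55 to 2.46. The proliferation marker Mki67 ranged over 2.88 to 6.63 FPKM in vehicle and 4.46 to 7.45 after IL-1β and also overlapped.

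Growth factor and matrix genes added some of the widest gaps among higher members. Ccn3 (ENSMUSG00000037362.8, chr15:54745702-54754039), a matricellular protein gene, was at 31.4, 29.6, 27.5 and 31.3 FPKM in vehicle, 99.3, 108, 92.6 and 87.99 after bleomycin, 129, 137, 126 and 134 after doxorubicin and 85.3, 91.2, 86.6 and 79.8 after IL-1β. Doxorubicin stood highest, with -0.44 ± 0.07, adjusted p = 5.1e-04, for bleomycin minus doxorubicin, and 0.61 ± 0.07, adjusted p = 8.8e-07, for doxorubicin minus IL-1β. Spp1, osteopontin, reached 1461 to 1718, 1657 to 2240.1 and 1308 to 1575 FPKM in the treatments from 423 to 558.7 in vehicle, with overlapping treated ranges. Prg4, which encodes the lubricant of the joint surface, was at 22.8, 18.7, 19.2 and 23.7 FPKM in vehicle, 52.1, 56.9, 52.5 and 60.6 after bleomycin, 106, 93.05, 87.4 and 103 after doxorubicin and 34.3, 43.7, 38.001 and 36.4 after IL-1β. The 4 groups were separate, and the differences were -0.80 ± 0.09, adjusted p = 5.4e-05, for bleomycin minus doxorubicin, and 0.53 ± 0.09, adjusted p = 1.3e-04, for bleomycin minus IL-1β. Prg4 is also a marker of synovial fibroblasts and the 1 member among the 6 tested markers of these cells. The summed level of that list was 62.5 to 94.8 FPKM in vehicle, 124 to 159 after bleomycin, 177 to 239 after doxorubicin and 129 to 159 after IL-1β, and its median difference by library was -0.16 to 0.14, 0.47 to 0.85, 0.66 to 1.21 and 0.17 to 0.51. The other 3 listed markers, Clic5, Dpp4 and Pi16, were under 1 FPKM in all libraries, and the part of such cells in these results was not tested. Dcn, the small proteoglycan decorin, lay at 444 to 554 FPKM in vehicle and at 1042 to 1223, 1279 to 1539 and 800.3 to 826. Grem1, an antagonist of bone morphogenetic proteins, lay at 10.8 to 15.7 FPKM in vehicle and at 29.9 to 44.2, 46.6 to 59.3 and 43.998 to 57.4 in the treatments. Igfbp3, which binds insulin-like growth factors, lay at 37.7 to 46.4 FPKM in vehicle and at 74.1 to 88.95, 112 to 145 and 78.02 to 94.6 in the treatments. Bglap2, an osteocalcin gene, was at 0 to 0.619 FPKM in vehicle and at 4.15 to 6.94, 3.18 to 6.72 and 10.5 to 12.2, but it has a near-identical neighbour in Bglap and reads may be split between them.

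Among the lower members were genes that charge transfer RNAs with amino acids. Of 21 tested aminoacyl-tRNA synthetase genes 16 were lower (76.2%, against 5.28% of all tested genes) and none higher. The count stayed at 16 under each of the 3 scalings. The list's median by library was -0.06 to 0.05 in vehicle, -0.61 to -0.59 after bleomycin, -0.62 to -0.56 after doxorubicin and -0.44 to -0.35 after IL-1β. Gars (ENSMUSG00000029777.10, chr6:55038007-55079500), which charges glycine, was at 236, 211, 208 and 215 FPKM in vehicle, 117, 122, 111 and 107 after bleomycin, 118, 124, 119.7 and 113 after doxorubicin and 123, 120.1, 122 and 124 after IL-1β. The treated libraries lay close together, and the vehicle mean was 1.90, 1.83 and 1.78 times the treated means. Iars, for isoleucine, was at 74.1 to 81.1 FPKM in vehicle and 45.96 to 49.6, 43.2 to 48.4 and 42.4 to 43.8 in the treatments, and Tars, for threonine, at 56.6 to 62.3 and 31.4 to 35.4, 32.2 to 34.5 and 38.01 to 41.5. Aars, for alanine, was at 78.4 to 81.99 FPKM in vehicle and 53.1 to 55.6, 53.4 to 56.5 and 56.4 to 64.5 in the treatments. Of the 16 members, 13 were called lower after bleomycin and 11 lower after doxorubicin than after IL-1β, against 25.2% and 29.2% of all tested genes. Under equal totals the direction flipped, with 11 called higher after bleomycin and 11 after doxorubicin. No member of this list was called between the 2 drugs, where 10.0% of all tested genes were.

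Enzymes that make serine, one-carbon units and other amino acids held 18 lower members (52.9%) and 1 higher, Ass1 (2.94%), among 34 tested. Over all tested genes 5.28% were lower and 8.11% higher. Aldh1l2 (ENSMUSG00000020256.14, chr10:83487450-83534140), a mitochondrial folate enzyme, had the largest gap of all lower members. It was at 77.6, 77.2, 78.8 and 82.9 FPKM in vehicle, 28.2, 26.04, 27.98 and 29.03 after bleomycin, 25.7, 29.4, 30.3 and 25.6 after doxorubicin and 30.5, 27.5, 26.5 and 32.8 after IL-1β. All 12 treated libraries shared one narrow range and the vehicle libraries lay far above it. The vehicle mean was 2.85, 2.85 and 2.70 times the treated means. Its differences between treatments were 0.0039 (95% interval -0.15 to 0.16), for bleomycin minus doxorubicin, -0.07 (95% interval -0.22 to 0.08), for bleomycin minus IL-1β, and -0.07 (95% interval -0.23 to 0.08), for doxorubicin minus IL-1β. Mthfd2, the next mitochondrial folate enzyme, was at 103, 93.5, 99.3 and 103 FPKM in vehicle, 46.8, 48.4, 51.4 and 43.8 after bleomycin, 41.8, 47.7, 48.3 and 37.1 after doxorubicin and 56.3, 49.4, 55.2 and 53.01 after IL-1β. Here too the treated groups overlapped with each other or nearly so. Asns, asparagine synthetase, was at 155, 148, 141 and 132 FPKM in vehicle, 71.9, 76.9, 74.3 and 74.1 after bleomycin, 77.01, 80.6, 78.1 and 76.1 after doxorubicin and 96.2, 92.6, 100.5 and 100.5 after IL-1β. The IL-1β libraries lay between vehicle and drugs, with -0.39 ± 0.05, adjusted p = 9.3e-06, for bleomycin minus IL-1β, and -0.32 ± 0.05, adjusted p = 6.3e-05, for doxorubicin minus IL-1β, the latter 0.06 under equal totals. Aldh18a1, which makes proline precursors, lay at 87.4 to 91.7 FPKM in vehicle and at 46.7 to 53.6, 48.1 to 53.8 and 43.9 to 50.1.

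Amino acid transporters held 8 lower (30.8%) and 2 higher members (7.69%) among 26 tested, against 5.28% and 8.11% of all tested genes. Slc7a5 (ENSMUSG00000040010.10, chr8:121881150-121907694), the light chain of the main importer of large neutral amino acids, was at 79.3, 75.6, 78.4 and 76.3 FPKM in vehicle, 28.5, 29.5, 33.4 and 27.5 after bleomycin, 25.9, 26.8, 30.6 and 22.7 after doxorubicin and 31.4, 30.4, 33.1 and 34.5 after IL-1β. The treated groups overlapped and the vehicle mean was 2.60, 2.92 and 2.39 times theirs. Slc7a1, which takes up arginine and lysine, lay at 27.5 to 28.2 FPKM in vehicle and at 14.1 to 15.6, 13.6 to 16.9 and 15.05 to 17.4. Slc6a9, a glycine transporter gene, lay at 32.1 to 35.6 FPKM in vehicle and at 14.2 to 18.1, 13.2 to 18.4 and 22.4 to 27.7.

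The list on ATF4 and the response to unfolded proteins held 9 lower members (30.0%, against 5.28% of all tested genes) among 30 tested. None was higher. Trib3, a pseudokinase gene that ATF4 induces, was at 71.8 to 84.3 FPKM in vehicle and 36.6 to 42.9, 24.6 to 31.97 and 36.9 to 51.3 in the treatments. Chac1, which degrades glutathione, was at 39.9 to 46.3 FPKM in vehicle and 23.2 to 32.8, 16.4 to 19.8 and 17.5 to 21.9. Fgf21, a stress hormone gene, was at 7.68 to 13.2 FPKM in vehicle, 3.87 to 4.13 and 2.46 to 3.52 after the drugs and 0.646 to 1.06 after IL-1β.

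Other genes of protein synthesis and folding were also lower members as deposited. Of 51 genes of folding and collagen processing in the endoplasmic reticulum 17 were lower (33.3%, against 5.28% of all tested genes) and 1 higher. Of 21 genes of translation initiation and its control 8 were lower (38.1%), and of 47 genes of ribosome biogenesis 10 (21.3%). With equal totals the last 2 counts became 15 and 35. Eif3c, a subunit of the initiation factor that prepares the small ribosomal subunit, lay at 201 to 218 FPKM in vehicle and at 124 to 142, 129 to 135 and 148 to 161. Ostc, which helps attach sugars to new proteins, lay at 248 to 255 FPKM in vehicle and at 164 to 183, 189 to 200.3 and 187 to 201. Ltv1, needed to finish the small ribosomal subunit, lay at 49.6 to 53.9 FPKM in vehicle and at 27.4 to 29.6, 31.2 to 32.9 and 28.9 to 32.9. Loxl4, which crosslinks collagen, lay at 262 to 274 FPKM in vehicle and at 187 to 220.3 and 178 to 217 after the drugs and 83.8 to 93.8 after IL-1β. Of the 62 genes listed for ribosomal proteins and elongation factors 4 were lower (21 with equal totals and 14 after quantile normalization). As deposited this was 6.45%, near the 5.28% over all tested genes. One of the 4 was the elongation factor gene Eef1a1, at 4446 to 4644 FPKM in vehicle and 3338 to 3757, 3687 to 4015 and 3772 to 3961. Eef1a1 overlapped with vehicle after quantile normalization. Respiratory chain genes held 2 higher (4.17%) and no lower members among 48, and the proteasome list 1 of each (3.23%) among 31. These shares lay under the 8.11% higher and 5.28% lower over all tested genes.

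**Figure D4:**
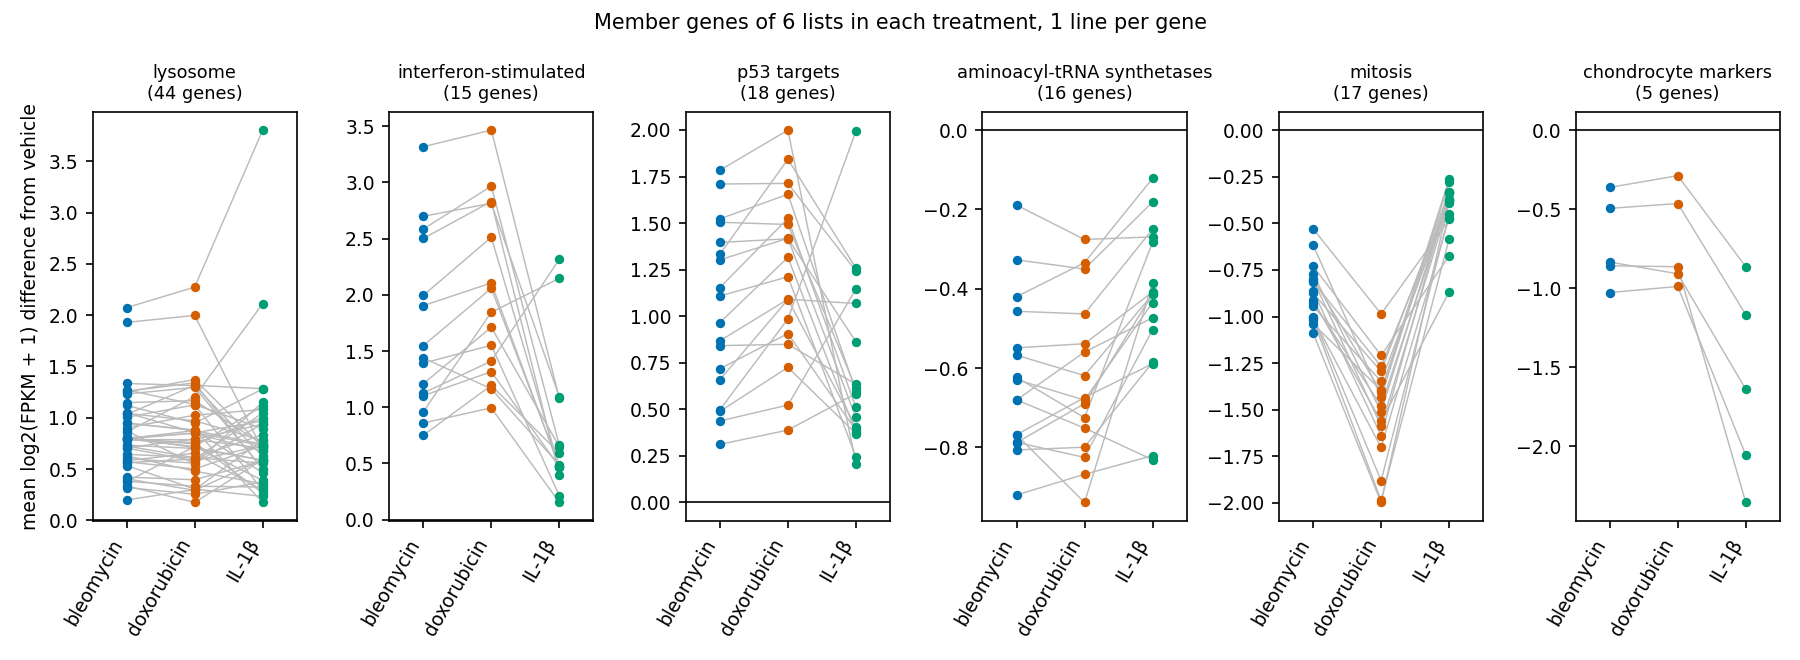
Mean log2(FPKM + 1) difference from vehicle of the member genes of 6 lists after bleomycin, doxorubicin and IL-1β, 1 line per gene, each panel on its own scale. Of the 44 lysosomal and 16 aminoacyl-tRNA synthetase members 7 and 2 were called in none of the treatment comparisons, against 36.0% of tested genes. Most interferon-stimulated members lie nearer to 0 after IL-1β, mitosis members are lowest after doxorubicin and chondrocyte markers lowest after IL-1β.

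Cell division genes were among the lower members, although most of those tested overlapped with vehicle as deposited. Of 40 tested mitosis genes 17 were lower members (42.5%) and none higher. Of 43 DNA replication genes 8 were lower (18.6%), against 5.28% of all tested genes. These counts became 23 and 13 with median-of-ratios scaling, 33 and 24 with equal totals and 24 and 14 after quantile normalization. The mitosis list's median by library was -0.18 to 0.09 in vehicle, -0.85 to -0.73 after bleomycin, -1.39 to -1.26 after doxorubicin and -0.39 to -0.23 after IL-1β. Plk1 (ENSMUSG00000030867.7, chr7:122159439-122169873), a kinase that drives entry into mitosis, was at 31.3, 26.7, 25.1 and 26.4 FPKM in vehicle, 14.5, 12.5, 13.4 and 11.8 after bleomycin, 9.47, 8.58, 6.35 and 6.73 after doxorubicin and 18.7, 19.5, 20.4 and 19.1 after IL-1β. All groups were separate, in the order vehicle, IL-1β, bleomycin, doxorubicin. Its differences were 0.69 ± 0.10, adjusted p = 4.8e-04, for bleomycin minus doxorubicin, -0.54 ± 0.10, adjusted p = 3.7e-04, for bleomycin minus IL-1β, and -1.23 ± 0.10, adjusted p = 5.1e-08, for doxorubicin minus IL-1β. All 17 members were called lower after doxorubicin than after bleomycin and than after IL-1β, and 14 were called lower after bleomycin than after IL-1β. Over all tested genes 5.85%, 29.2% and 25.2% were called in these directions. The 17 became 15, 17 and 16 against bleomycin under median-of-ratios, equal-total and quantile scaling, and the 14 became 4 under equal totals, where 2 were called the other way. Ccna2, a cyclin gene, was at 29.4 to 36.3 FPKM in vehicle and 14.9 to 16.02, 6.78 to 8.36 and 19.6 to 23.3, and Mcm6, of the replicative helicase, at 26.3 to 32.7 and 15.1 to 16.5, 8.15 to 10.5 and 20.5 to 22.2. The letters TTTGAA, of the cell-cycle homology region, stood in 42.9% of the windows of lower mitosis members, in 39.1% of those of mitosis genes that were not members and in 10.6% of those of tested genes.

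Nuclear lamina and chromatin genes held 6 lower members (35.3%, against 5.28% of all tested genes) among 17 tested. None was higher, and 10 were lower with equal totals. Lmnb1, lamin B1, was at 24.4, 22.9, 19.5 and 24.02 FPKM in vehicle, 8.75, 8.43, 8.21 and 7.65 after bleomycin, 3.64, 4.22, 4.43 and 3.36 after doxorubicin and 13.8, 11.6, 12.3 and 13.2 after IL-1β. Every group was separate from the others, with IL-1β nearest to vehicle. The vehicle mean was 2.75, 5.81 and 1.79 times the treated means, and the differences were 0.92 ± 0.09, adjusted p = 8.1e-06, for bleomycin minus doxorubicin, -0.57 ± 0.09, adjusted p = 4.1e-05, for bleomycin minus IL-1β, and -1.48 ± 0.09, adjusted p = 6.0e-10, for doxorubicin minus IL-1β. Tmpo, a lamina-associated protein gene, lay at 43.8 to 48.7 FPKM in vehicle and at 18.6 to 23.8, 16.7 to 18.8 and 22.7 to 31.3. E2f8, a repressor of the cell cycle that is itself made in S phase, lay at 6.23 to 6.61 FPKM in vehicle and at 2.87 to 3.83, 2.01 to 2.32 and 2.24 to 3.37.

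Of the 10 chondrocyte markers 5 (50.0%, against 5.28% of all tested genes) were lower in all treated libraries: Acan, Matn3, Hapln1, Col2a1 and Sox9. Acan (ENSMUSG00000030607.7, chr7:79053483-79115099), aggrecan, was at 559.6, 627, 722 and 570.1 FPKM in vehicle, 273, 302, 344 and 294 after bleomycin, 299.7, 327, 359.9 and 263 after doxorubicin and 154, 154, 146 and 137 after IL-1β. The drugs overlapped with each other and IL-1β lay below both, with 1.03 ± 0.10, adjusted p = 2.8e-07, for bleomycin minus IL-1β, and 1.07 ± 0.10, adjusted p = 1.7e-07, for doxorubicin minus IL-1β. Col2a1, type II collagen, was at 8163, 9054, 10625 and 8040.5 FPKM in vehicle, 5599, 6459.7, 7294 and 6071 after bleomycin, 6208, 6779, 7388 and 5605 after doxorubicin and 3893, 3914, 4191 and 3889 after IL-1β. The highest drug library lay close under the lowest vehicle library, and Col2a1 overlapped with vehicle after quantile normalization. Sox9 was at 55.4 to 59.2 FPKM in vehicle, 41.7 to 46.1 and 44.9 to 51.2 after the drugs and 27.3 to 33.4 after IL-1β, and Matn3, matrilin 3, at 79.2 to 113, 45.3 to 57.4, 42.2 to 61.9 and 15.9 to 18.5. All 5 were called lower after IL-1β than after bleomycin and than after doxorubicin, under the deposited scaling and the 3 others. As deposited, 27.6% and 25.1% of all tested genes were called in these directions. In the wider cartilage matrix list 5 of 28 genes were lower (17.9%) and 3 higher (10.7%), Prg4 among the latter. Over all tested genes 5.28% were lower and 8.11% higher, the latter near the share of this list. The list's median by library was -0.29 to 0.11 after bleomycin and -0.09 to 0.31 after doxorubicin, both overlapping with vehicle. After IL-1β it was -1.27 to -1.11. Col10a1, the collagen of hypertrophic chondrocytes, lay at 51.1 to 59.9 FPKM in vehicle and at 28.9 to 33.97, 21.7 to 27.6 and 26.02 to 42.7.

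Sulfated chains are the other part of aggrecan. Of 47 genes of glycosaminoglycan synthesis and hyaluronan 9 were lower (19.1%) and 5 higher (10.6%), the latter 1 with equal totals. Over all tested genes 5.28% were lower and 8.11% higher. Papss2 (ENSMUSG00000024899.7, chr19:32595790-32667187), which makes the sulfate donor, was at 150.1, 153, 172 and 144 FPKM in vehicle, 67.9, 70.1, 76.2 and 71.4 after bleomycin, 76.2, 79.9, 87.02 and 71.3 after doxorubicin and 62.1, 55.5, 55.7 and 57.7 after IL-1β. It lay lowest after IL-1β, with 0.30 ± 0.07, adjusted p = 0.0014, for bleomycin minus IL-1β, and 0.44 ± 0.07, adjusted p = 4.7e-05, for doxorubicin minus IL-1β.

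Some of the widest gaps among lower members fell outside these systems. Tnmd, tenomodulin, a tendon marker, lay at 13.3 to 19.2 FPKM in vehicle and at 2.19 to 2.63, 3.72 to 6.50 and 2.25 to 3.39. The other 5 tested tendon and ligament markers were not members. The summed level of that list was 417 to 529 FPKM in vehicle and 272 to 291 after IL-1β. After the drugs the sum lay above vehicle instead, at 702 to 748 for bleomycin and 676 to 703 for doxorubicin. The median difference of the list did not follow the sum. By library it was -0.11 to 0.10 in vehicle, -0.14 to 0.40 after bleomycin, -0.37 to -0.08 after doxorubicin and -0.68 to -0.45 after IL-1β. Eno3, the muscle-type enolase, lay at 30.1 to 32.6 FPKM in vehicle and at 8.47 to 10.1, 11.99 to 13.8 and 12.2 to 14.4. Krt7, a keratin gene, lay at 7.61 to 8.78 FPKM in vehicle and at 1.34 to 2.41, 2.60 to 3.55 and 1.39 to 2.26. Il1rl1, the receptor of interleukin-33, lay at 72.03 to 99.8 FPKM in vehicle and at 18.2 to 27.5, 47.98 to 56.8 and 37.7 to 54.9, lowest after bleomycin. The imprinted noncoding RNA H19 was at 2197, 2129, 2328 and 2141 FPKM in vehicle, 1512, 1455, 1429 and 1382 after bleomycin, 998, 984, 1035 and 968 after doxorubicin and 529.8, 513, 555 and 502 after IL-1β. Its groups stepped down without overlap, with 0.54 ± 0.05, adjusted p = 8.1e-06, for bleomycin minus doxorubicin, and 0.92 ± 0.05, adjusted p = 2.6e-10, for doxorubicin minus IL-1β. Next to it, Gm49394 lay at 151 to 446 FPKM in vehicle and at 0.0228 to 0.0594, 0.0377 to 71.9 and 0 to 0.0883, but it overlaps Igf2 on the same strand, so that its value rests on how reads were assigned between them. Igf2 was not a member, with 2112 to 2245 FPKM in vehicle, 2360.2 to 2659.6 and 2261 to 2748 after the drugs and 1045 to 1167 after IL-1β.

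Over all members, the comparisons of 2 treatments gave the following counts. Members were chosen on the levels of the same treated libraries, so their shares beside all tested genes may also reflect that choice. Between bleomycin and doxorubicin 288 members were called, 16.6% of them against 10.0% of all tested genes. A called difference of at least 2-fold was found in 6 of the 1737 members and in 51 of the 12976 tested genes. Among higher members 131 of 163 called genes were higher after doxorubicin, and among lower members 101 of 125 were higher after bleomycin, where 4.18% and 5.85% of all tested genes were called in these directions, so most called members lay farther from vehicle after doxorubicin. This split shifted with scaling: over all called members 133 were higher after bleomycin and 155 after doxorubicin as deposited, and 84 and 196 with median-of-ratios scaling. Between bleomycin and IL-1β 937 members were called, 53.9% against 52.8% of all tested genes. Of these 473 were higher after bleomycin and 464 after IL-1β. Between doxorubicin and IL-1β 983 were called, 56.6% against 54.2%, with 477 higher after doxorubicin and 506 after IL-1β. Differences of at least 2-fold were called in 99 and 128 members in these 2 comparisons, and in 864 and 1007 of all tested genes.

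**Figure D5:**
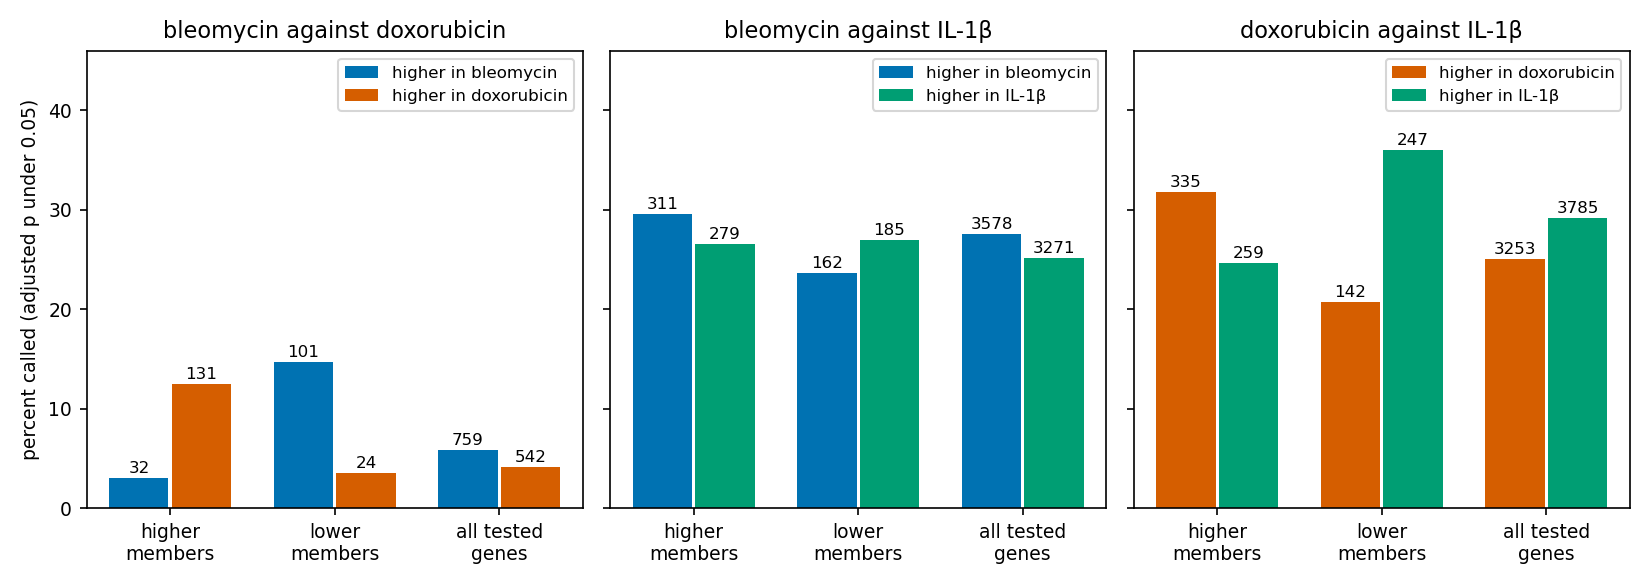
Percent of higher members, lower members and all tested genes called in each comparison of 2 treatments (limma, adjusted p under 0.05), by direction, with the number of genes above each bar. Between the drugs 131 higher members are higher after doxorubicin and 101 lower members are higher after bleomycin, and both comparisons with IL-1β call members in both directions.

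Shared direction therefore did not mean equal size. In no comparison of 2 treatments were 551 members called, 31.7% against 36.0% of all tested genes. In all 3 comparisons 146 of the 1737 members were called, and 692 of the 12976 tested genes. A missing call does not show that treatments acted alike, so intervals were used as well: in 1040 members (59.9%, against 48.8% of all tested genes) the 95% intervals of all 3 differences lay within 1.5-fold. Most of those members were also small in their difference from vehicle. Of the 240 members whose mean treated difference was at least 2-fold, 34 met that bound, 28 higher and 6 lower.

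In the vehicle libraries the higher members had a median of 7.83 FPKM and the lower members 21.2, against 8.67 over all tested genes. The rule and the filter bear on these levels: 123 higher and 0 lower members had all vehicle libraries under 1 FPKM. Lower members had more annotated exonic sequence, all exons of a gene merged, with a median of 4644 bases against 3658 in higher members and 4187 in all tested genes. Protein-coding genes made up 95.5% of the higher and 95.9% of the lower members and 90.4% of the tested genes. Members came from every autosome and from chromosome X. The higher share ran from 7.03% of tested genes on chromosome 9 to 10.1% on chromosomes 17 and 19. The lower share ran from 3.52% on chromosome 17 to 7.27% on chromosome 18. The treatment farthest from vehicle was IL-1β in 404 higher members, doxorubicin in 363 and bleomycin in 285, and among lower members doxorubicin in 329, IL-1β in 230 and bleomycin in 126. Of all members, 247 of the higher and 202 of the lower genes stood in at least 1 of 61 lists of pathways and cell types, and the rest are described only by these totals.

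The members that kept most nearly the same level in the 3 treatments, among those at least 2-fold from vehicle on average, were Olfm1, C2, Slc39a10, Ddit4l and Spint2 among higher genes and Aldh1l2, Slc7a5, Wscd2, Mthfd2 and Kcnk1 among lower genes. They were picked for having a small range of mean differences, so no test of their likeness is given beyond the intervals. Ddit4l, an inhibitor of mTOR signalling, was at 7.14, 8.97, 7.33 and 7.15 FPKM in vehicle, 18.97, 18.3, 17.5 and 19.2 after bleomycin, 21.5, 18.8, 19.5 and 20.5 after doxorubicin and 20.9, 21.7, 19.99 and 17.3 after IL-1β. The treated libraries formed a single range above vehicle, and the differences were -0.11 (95% interval -0.28 to 0.06), for bleomycin minus doxorubicin, -0.10 (95% interval -0.27 to 0.07), for bleomycin minus IL-1β, and 0.01 (95% interval -0.16 to 0.18), for doxorubicin minus IL-1β. Olfm1, a secreted olfactomedin, lay at 6.73 to 9.16 FPKM in vehicle and at 15.1 to 19, 14.99 to 17.1 and 16.9 to 19.3. Spint2, a protease inhibitor gene, lay at 1.72 to 3.02 FPKM in vehicle and at 4.96 to 5.91, 4.82 to 6.03 and 4.89 to 7.97. The potassium channel gene Kcnk1 lay at 6.27 to 7.15 FPKM in vehicle and at 2.17 to 3.55, 2.21 to 3.02 and 2.53 to 2.82, and Wscd2, of little known function, at 3.01 to 4.33 and 0.901 to 1.32, 1.14 to 1.42 and 0.812 to 1.11. C2 shares its locus with an overlapping gene on the same strand, so its level is uncertain. With equal totals Aldh1l2 and Ddit4l were called higher after bleomycin than after IL-1β, by 0.30 and 0.27, and higher after doxorubicin than after IL-1β, by 0.30 and 0.38, where the medians of all tested genes differed by 0.37 and 0.32.

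The members with the largest called differences between a drug and IL-1β were Vnn1, S100a8 and Pim2, highest after IL-1β, and Irf7, Oas1a and Bst2, highest after the drugs. Irf7 and Oas1a passed the FPKM filter only with the drug libraries, and S100a8 only with the IL-1β libraries. The called differences of Irf7, Oas1a and S100a8 therefore restate the filter in part. S100a8, a calcium-binding alarmin of myeloid cells, was at 0 to 0.319 FPKM in vehicle, 0.393 to 0.965 and 0.469 to 2.23 after the drugs and 30.7 to 46.8 after IL-1β, so it met the rule through levels near 0 outside IL-1β and overlapped with vehicle after quantile normalization. Gsta4 and Gsta1, both glutathione transferases, were at 24.9 to 33.2 and 17.8 to 26.6 FPKM after IL-1β against 2.86 to 4.41 and 0.664 to 1.49 in vehicle and 11.4 to 14.6 and 2.40 to 4.82 after doxorubicin. Oas1a, which senses double-stranded RNA, was at 0 to 0.207 FPKM in vehicle, 2.90 to 8.17 and 5.67 to 7.41 after the drugs and 0.343 to 0.498 after IL-1β. Macrophage markers moved in the same direction as S100a8: 2 of 4 tested were higher members, and their summed level was 9.73 to 11.6 FPKM in vehicle, 17.5 to 18.96 after bleomycin, 20.7 to 25.3 after doxorubicin and 30.3 to 35.6 after IL-1β. The defining markers Ptprc, Adgre1, Csf1r and Itgam stayed under 1 FPKM throughout.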

How the data were processed

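Total RNA from 16 samples, 4 in each of 4 groups, was made into stranded mRNA libraries, per the labels' protocols. The authors deposited 1 table of FPKM values per library, each listing 55450 genes. The submitters' processing notes name Trimmomatic, STAR and build GRCm38. The program that counted fragments, its strand setting and the annotation are not given in the sources used here, so overlapping genes on either strand may share reads. Recovering whole reads from the FPKM steps gave 58.8% to 62.2% whole values within 0.1, so no count test was run.

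Values were used as deposited. Genes with an FPKM of at least 1 in at least 4 libraries were kept, and membership was read from the lowest and highest library of each side. The gap is the distance between the nearest treated and vehicle libraries on log2(FPKM + 1). Treatments were compared with limma 3.58.1 in R 4.3.3 (moderated by a trend in the mean, 2-sided, no covariate, all 16 libraries sharing one spread), a procedure tested on simulated data. Other steps used pandas 2.3.3 and numpy 2.4.6 in Python 3.11.15, with figures from matplotlib 3.10.9. Gene coordinates came from the GENCODE annotation of GRCm38.

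Members and gene lists were chosen with earlier results of these data known. The genes named are the members with the 12 largest gaps in each direction, up to 3 of each list by gap, the nearest genes on both sides of the rule, the 4 largest called differences in each direction between treatments, the 5 most alike and the 3 most abundant in each direction, and a fixed set of senescence and cartilage genes. From these a selection is printed. Igf2, Lamp1, Gla, Mcoln1, Naglu, Aars and Chac1 were added after their values were seen. Alternatives were other scalings, filters, pseudocounts, a wider gap, a replicate block, treated libraries alone and leaving out each library.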

Additional observations from a re-analysis of the deposited data

Results flagged for a closer look

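In each group of 4 libraries, a library was marked where its gap to the nearest of the others passed the 95% critical value of Dixon's test as a share of the group's range, which chance alone does in about 1 in 20 groups. Over the groups of the genes printed and the library totals, 29 of 448 were marked, 6.47%. Among the vehicle libraries these were Irf7 in replicate 2 (0.0679 FPKM against 0.517 to 0.604), Phlda3 in replicate 4 (53.3 FPKM against 61.4 to 62.0) and Ddit4l in replicate 2 (8.97 FPKM against 7.14 to 7.33). Also marked were Vnn1 in replicate 3 (0.824 FPKM against 1.55 to 1.68), E2f8 in replicate 3 (6.23 FPKM against 6.56 to 6.61) and Hapln1 in replicate 1 (166 FPKM against 200.3 to 202). Others in this group were Gm49394 in replicate 3 (446 FPKM against 151 to 185) and Hspb8 in replicate 2 (25.3 FPKM against 25.7 to 25.8). Among the bleomycin libraries these were Npc2 in replicate 4 (104 FPKM against 95.8 to 97.0), Ccl5 in replicate 2 (5.61 FPKM against 3.56 to 3.76) and Spp1 in replicate 3 (1461 FPKM against 1682 to 1718). Also marked were Grem1 in replicate 4 (44.2 FPKM against 29.9 to 30.6), Adamts5 in replicate 4 (16.3 FPKM against 13.5 to 13.9) and Mmp3 in replicate 4 (36.5 FPKM against 24.3 to 26.3). Others in this group were Bhlhe40 in replicate 3 (20.6 FPKM against 21.17 to 21.22). Among the doxorubicin libraries these were Trp53inp1 in replicate 3 (27.7 FPKM against 19.8 to 21.0), Olfm1 in replicate 3 (14.99 FPKM against 16.8 to 17.1) and Sox9 in replicate 3 (51.2 FPKM against 44.9 to 45.8). Also marked were Gm49394 in replicate 1 (71.9 FPKM against 0.0377 to 0.724), Cxcl1 in replicate 4 (61.7 FPKM against 30.8 to 33.0) and Mmp13 in replicate 4 (512 FPKM against 286 to 314). Among the IL-1β libraries these were C2 in replicate 3 (3.89 FPKM against 3.27 to 3.36), Ccl5 in replicate 3 (45.2 FPKM against 28.3 to 30.8) and Il34 in replicate 4 (7.07 FPKM against 8.96 to 9.06). Also marked were Olfm1 in replicate 2 (19.3 FPKM against 16.9 to 17.0), Tars in replicate 4 (41.5 FPKM against 38.0 to 38.3) and Col2a1 in replicate 3 (4191 FPKM against 3889 to 3914). Others in this group were Gm49394 in replicate 1 (0.0883 FPKM against 0 to 0.0127).
The sum of all FPKM values was also marked in vehicle replicate 3, at 423830 against 413564 to 414743 in the other vehicle libraries, and the number of lower members was highest without that library.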

How the results depend on the processing

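The number of members depended on scaling and on the vehicle libraries. With equal FPKM totals 494 genes were higher and 1324 lower, of which 486 and 650 were among the 1052 and 685 members as deposited. A gap of at least 0.1 left 638 and 380. Leaving out 1 library gave 1066 to 1218 higher and 693 to 947 lower members, the latter highest without vehicle replicate 3. Under this rule fewer libraries can only keep or add members, so the direction of these changes was fixed in advance. Between treatments, leaving out 1 library gave 202 to 296 called members for bleomycin against doxorubicin, 855 to 945 for bleomycin against IL-1β, 906 to 981 for doxorubicin against IL-1β and 553 to 625 called in none, and equal totals brought the last to 272. With equal totals 1146 of 1295 called members were higher after bleomycin than after IL-1β and 1108 of 1286 higher after doxorubicin. Quantile normalization gave 561 higher after doxorubicin and 420 after IL-1β, and 107 higher after bleomycin and 190 after doxorubicin. The IL-1β totals used for equal-total scaling include Saa3, at 62509 to 80249 FPKM. The cause of these shifts was not tested beyond the scaling itself. Same-numbered libraries were not treated as pairs, since the labels name no shared batch and only 6 of 24 same-numbered pairs had a correlation of deviations from the group means over 0.1 (range -0.02 to 0.21). The numbers may still mark something shared: 30 of 48 comparisons were best with the own number, where 12 would be with no relation, and no pair of different numbers passed 0.099. Comparing each treated library with the vehicle library of its own replicate number, as a replicate block, gave 1589 higher and 1133 lower genes. That is a looser rule, which all 1052 and 685 members also meet. A replicate block in the fits gave 315, 951 and 995 called members and 534 in none. Over 76 printed gene differences and their 1824 alternative values, 1800 kept their direction and side of the threshold, 9 lost and 2 gained a call and 13 turned. Aldh1l2 turned for bleomycin minus doxorubicin to -0.044 with median-of-ratios scaling, -0.031 after quantile normalization, and -0.00267, -0.016, -0.030 and -0.032 without bleomycin replicates 1 and 4 and doxorubicin replicates 1 and 4, within a range of -0.032 to 0.046 when 1 library was left out. With equal totals it was 0.30 for bleomycin minus IL-1β (adjusted p = 0.0049, limma) and 0.30 for doxorubicin minus IL-1β (adjusted p = 0.0061), and the latter was 0.0029 after quantile normalization. Asns turned to 0.057 for doxorubicin minus IL-1β with equal totals. Ddit4l was 0.27 for bleomycin minus IL-1β with equal totals (adjusted p = 0.0074), and for doxorubicin minus IL-1β -0.021 without doxorubicin replicate 1 and -0.053 without IL-1β replicate 4, within a range of -0.053 to 0.052. The files hold no counts, so no counting interval can be given for genes with levels near 0.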

Other observations

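Smaller groups outside the main systems also held members. Clock genes had 3 higher members (17.6%, against 8.11% of all tested genes) and none lower among 17 tested. Dbp, an output factor of the clock, was at 2.43 to 3.91 FPKM in vehicle and 8.46 to 12.1, 8.99 to 10.7 and 4.97 to 7.37 after bleomycin, doxorubicin and IL-1β. The clock repressor gene Bhlhe40 was at 14.5 to 16.6 and 20.6 to 21.2, 21.99 to 27.3 and 30.5 to 35.3. Dbp overlapped with vehicle with equal totals, where 1 clock gene stayed higher. Nucleotide synthesis had 5 lower members (17.2%) and 1 higher (3.45%) among 29, against 5.28% and 8.11% of all tested genes. With equal totals 13 were lower. The lower member Impdh2, which makes guanine nucleotides, was at 75.6 to 88.2 FPKM in vehicle and 52.5 to 59.3, 51.9 to 59.6 and 56.8 to 66.6. Srebf1, a regulator of lipid synthesis, was lower, at 52.4 to 69.2 FPKM in vehicle and 29.2 to 31.3, 31.9 to 37.1 and 26.6 to 29.4.

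The glycolysis and hypoxia response list had 5 higher members (13.9%, against 8.11% of all tested genes) and none lower among 36. It had 1 higher and 3 lower with equal totals. Its member Adm, adrenomedullin, was at 44.9 to 58.4 FPKM in vehicle and 87.8 to 98.4, 100.7 to 136 and 100.1 to 109 in the treatments. Epas1, the hypoxia factor HIF-2α, was at 2.13 to 2.59 FPKM in vehicle, 4.34 to 5.43 and 5.78 to 7.35 after the drugs and 25.1 to 28.2 after IL-1β. Hspb8, a small heat shock protein gene, was at 25.3 to 25.8 FPKM in vehicle and within one range in the treatments, 44.96 to 48.3, 44.7 to 51.7 and 44.8 to 49.7. The receptor gene Notch3 was at 0.578 to 0.998 FPKM in vehicle and 2.74 to 3.68, 3.51 to 6.31 and 1.24 to 2.40, and overlapped with vehicle with equal totals.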
